A study of Mus musculus with 9 samples.

Results

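The sarcomere and contractile genes described here are 49 protein-coding genes of the muscle contractile apparatus, taken by symbol from the 55536 genes of a count table of primary mouse myoblasts. They were chosen as a pathway list of 10 roles, running from myosin heavy chains to creatine kinases. The sarcomere is the repeating unit of striated muscle, in which thick filaments of myosin slide along thin filaments of actin. Calcium binding to troponin moves tropomyosin off actin and lets the myosin heads attach, while titin, the Z-disc and the M-band hold both filament systems in register. Myoblasts express most of these genes at low levels until they leave the cell cycle and fuse, and skeletal muscle passes from embryonic and cardiac-type isoforms to adult fast and slow ones as it matures.

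The study asked how a small molecule changes gene expression in myoblasts that lack Uqcrfs1, the Rieske iron-sulfur subunit of respiratory chain complex III. Knockout oxybutynin libraries came from cells in which floxed Uqcrfs1 had been deleted with an adenovirus carrying Cre and which then received 7.5 µM oxybutynin, a muscarinic receptor antagonist, for 5 days. Knockout vehicle libraries came from cells with the same deletion and an equal volume of DMSO, and floxed vehicle libraries from cells with the same floxed alleles, an adenovirus carrying green fluorescent protein and DMSO. Primary myoblast culture in serum-rich medium, adenoviral infection, seeding 72 hours later and dosing 24 hours after seeding were shared by all 3 groups. Each group had 3 libraries. Genotype and the gene carried by the virus changed together, so the effect of the knockout and that of Cre expression cannot be told apart. No floxed cells received oxybutynin, so its effect cannot be compared between genotypes. No label states whether the libraries of a group came from separate cultures or animals, so every p-value measures the spread between these libraries only. The cells were sequenced in bulk, and fewer cells expressing a gene cannot be told apart from less RNA of it per cell.

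Library totals ran from 19604971 to 26226949 counts. Uqcrfs1 averaged 2.56 ± 0.44 CPM in knockout oxybutynin libraries, 2.45 ± 0.36 CPM in knockout vehicle libraries and 79.6 ± 3.7 CPM in floxed vehicle libraries (SD, n = 3 each). CPM stands for counts scaled to a common library size of 1e+06 after TMM scaling. The defining myoblast genes Pax7, Myod1 and Myf5 were present in every library, at 407 to 431 CPM for Pax7 in knockout oxybutynin, 376 to 400 CPM in knockout vehicle and 317 to 325 CPM in floxed vehicle libraries. Of the 8 myoblast markers, Pax7 among them, 2 were called higher and 3 lower in knockout vehicle than floxed vehicle cells. Their log2 fold changes ran from -0.94 to 0.33 (median -0.05). Of all tested genes 29.9% were called higher and 33.4% lower in this comparison. Markers of other cells were low but not flat. The 6 leukocyte markers summed to 12.7 to 13.7 CPM in knockout oxybutynin, 11.3 to 12.95 CPM in knockout vehicle and 5.36 to 6.22 CPM in floxed vehicle libraries, with Cd68 the main part. The 6 endothelial markers summed to 8.94 to 11.1 CPM in knockout oxybutynin, 8.53 to 9.64 CPM in knockout vehicle and 4.96 to 6.36 CPM in floxed vehicle libraries, with Vwf the main part. The part of such cells in the results was not tested. Knockout vehicle library 2 stood apart from the other libraries of its group, with 7.63% of its counts on ribosomal RNA genes against 9.91% and 11.8%. Ribosomal RNA took 10.8% to 14.0% of counts in knockout oxybutynin, 7.63% to 11.8% in knockout vehicle and 7.70% to 8.33% in floxed vehicle libraries. In a fit without ribosomal RNA, mitochondrial and Rn7sk genes no sarcomere gene changed its call against floxed vehicle cells, and 2 (Mybpc1 and Lmod3) became called lower in knockout oxybutynin than knockout vehicle cells.

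The 49 genes together took 0.880% to 1.01% of all counts in knockout oxybutynin libraries, 1.00% to 1.09% in knockout vehicle libraries and 1.64% to 1.82% in floxed vehicle libraries. Most of the gap between genotypes lay in Ttn, which held 22.9% to 26.5% of the counts of the 49 genes in knockout oxybutynin, 20.2% to 29.8% in knockout vehicle and 42.6% to 43.9% in floxed vehicle libraries. Without Ttn the sum was 0.679% to 0.744% of counts in knockout oxybutynin, 0.759% to 0.867% in knockout vehicle and 0.942% to 1.02% in floxed vehicle libraries, and the floxed range still lay above both others. Per kilobase of exon, Acta1 was the highest of the 49 in floxed vehicle cells at 463 CPM per kb, followed by Actc1 at 347, Mylpf at 299 and Myl1 at 208 CPM per kb. Of the 49 genes, 48 passed the filter on low counts. Myl3, the slow and ventricular essential light chain, did not pass, with 1 count in knockout oxybutynin library 3, 1 count in each knockout vehicle library and 0 in the floxed vehicle libraries.

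In knockout vehicle cells 18 of the 48 genes were higher and 20 were lower than in floxed vehicle cells, and 10 were not called (edgeR quasi-likelihood test, Benjamini-Hochberg adjusted p under 0.05 over 15720 genes). The same test called 63.3% of all tested genes, 29.9% higher and 33.4% lower, and the counts of the 48 genes are read against this background. A change of at least 2-fold was called for 6 of the 48 genes upward and 7 downward, against 8.62% and 15.8% of all tested genes. The median log2 fold change was -0.11 over the 48 genes and -0.01 over all tested genes. The direction differed between and within roles. The genes that rose furthest were Ckmt2 (8.89-fold), Mybpc2, Myl2, Myh4, Ckm and Tcap. The genes that fell furthest were Myh3, Ttn, Neb, Actc1, Lmod3, Myh1 and Mybph.

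**Figure D1:**
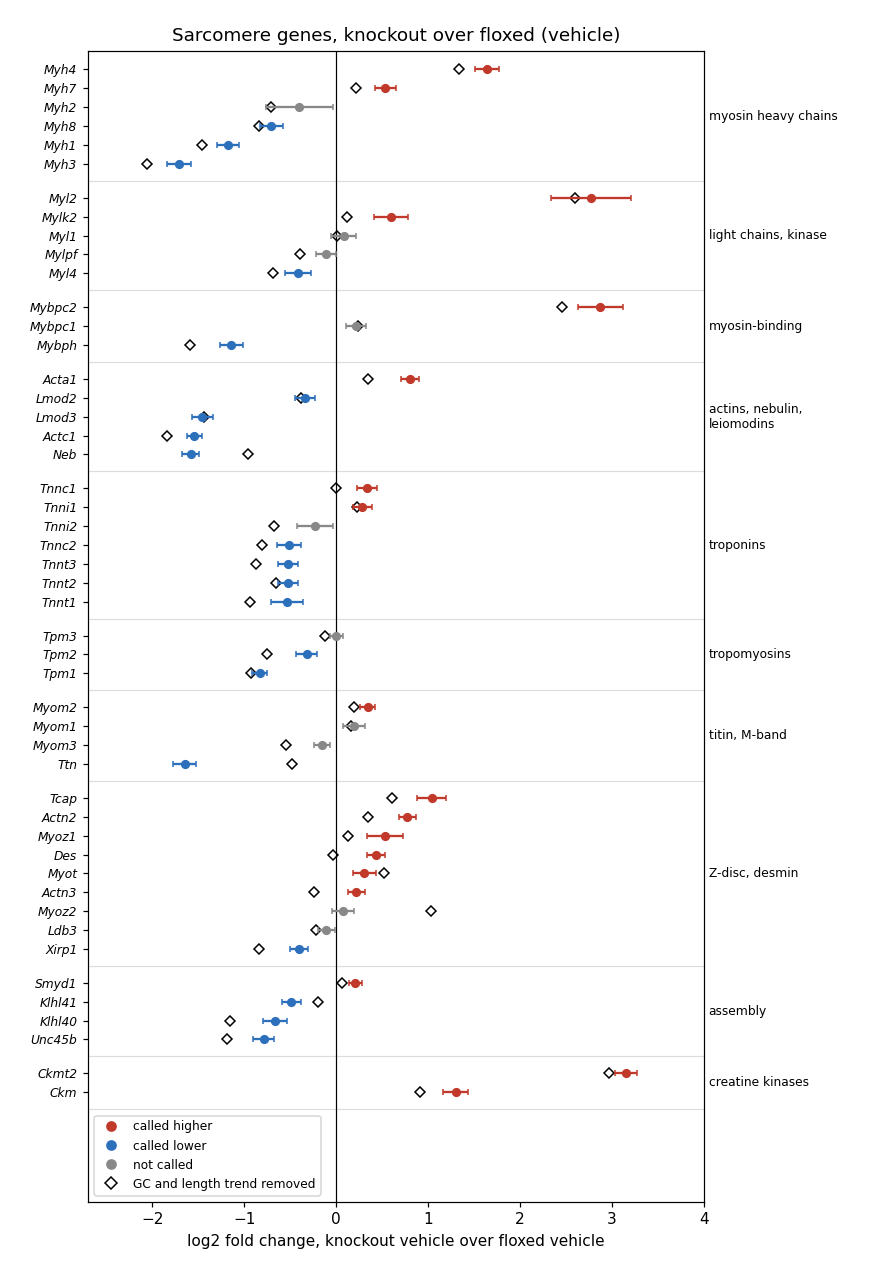
Log2 fold change of the 48 tested sarcomere genes, knockout vehicle over floxed vehicle, grouped by role and ordered within each role. Filled points are the edgeR estimates with bars of 1 SE, red for genes called higher (18), blue for genes called lower (20) and grey for the 10 not called. Open diamonds are the estimates with the GC and length trend of each library removed, and the widest gap between the marks is that of Ttn among the genes called, at -0.48 against -1.65.

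Fold changes with knockout were tied to base composition across the transcriptome. Spearman's rho between the log2 fold change and GC content was 0.54 over 12976 protein-coding genes and 0.21 over the 48 genes, whose median GC content was 53.0% against 49.8% for all tested protein-coding genes. With the trend on GC content and exon length taken out of each library, 12 of the 48 genes were called higher and 24 lower (28.2% and 30.7% of all tested genes), and the median over the 48 genes became -0.23. Of the 18 genes called higher, 10 were still called higher, 7 were no longer called and Actn3 was called lower. Of the 20 called lower, 19 were still called lower and Klhl41 was no longer called. Whether this trend is technical or part of the response was not tested, and the estimate without it is given beside each gene whose call in this comparison it changes. In every other fit at this threshold that tested them (other scaling, tools, filters, gene sets, the trend removed, 1 library left out), 9 genes kept the call higher (Myh4, Myl2, Mybpc2, Acta1, Myom2, Actn2, Tcap, Ckm and Ckmt2) and 15 kept the call lower (Myh1, Myh3, Myh8, Mybph, Actc1, Neb, Lmod3, Tnnc2, Tnnt2, Tnnt3, Tpm1, Ttn, Xirp1, Unc45b and Klhl40). The share of all tested genes that kept their call is not given here, so these counts do not show whether sarcomere genes were more stable than others.

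**Figure D2:**
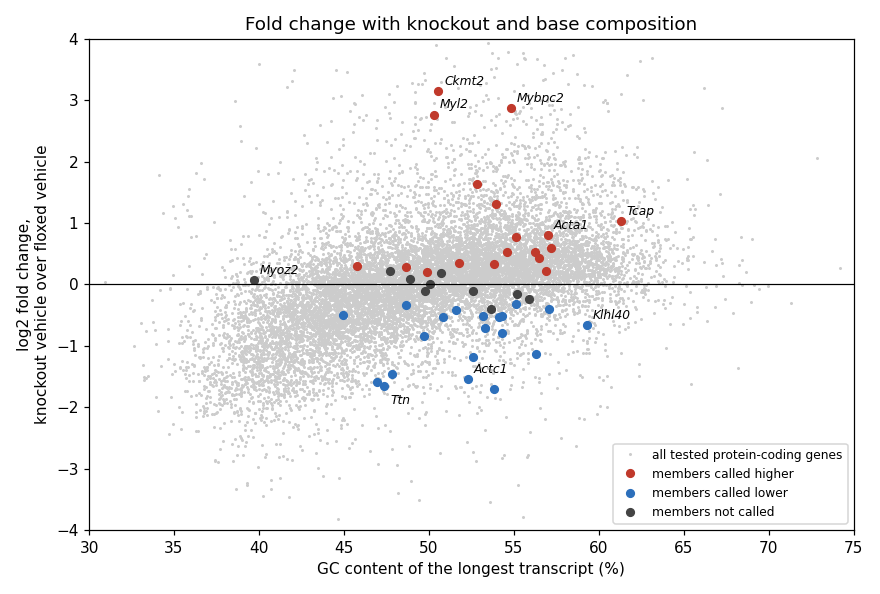
Log2 fold change, knockout vehicle over floxed vehicle, against the GC content of each gene's longest transcript in percent. Grey points are the 12976 tested protein-coding genes, of which 36 lie outside the axes, and coloured points are the 48 sarcomere genes by call. The grey cloud slopes upward (rho = 0.54). Ttn, at 47.4% GC against a median of 49.8%, lies within the lower part of the cloud, and Ckmt2, Mybpc2 and Myl2 lie in its upper part.

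The promoters of 4 genes are shown because they moved with knockout in opposite directions, Ckmt2 and Myh4 upward and Actc1 and Ttn downward. Each runs from 250 bases before to 50 bases after the RefSeq start site (GRCm38.p6), 5′ to 3′ on the strand of the gene, at chr13:91876836-91877135 (minus strand) for Ckmt2, chr11:67237562-67237861 (plus) for Myh4, chr2:114052826-114053125 (minus) for Actc1 and chr2:76982498-76982797 (minus) for Ttn. Capitals mark the E-box CANNTG bound by MyoD-family factors, the TATA box TATAAA on either strand, the MEF2 site and the CArG box bound by serum response factor.
Ckmt2: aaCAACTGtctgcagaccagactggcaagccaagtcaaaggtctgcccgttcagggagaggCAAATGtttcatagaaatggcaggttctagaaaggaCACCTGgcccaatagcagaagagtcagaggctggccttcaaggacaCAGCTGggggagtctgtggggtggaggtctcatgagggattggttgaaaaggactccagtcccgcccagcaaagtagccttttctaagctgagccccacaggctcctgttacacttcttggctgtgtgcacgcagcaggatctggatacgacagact
Myh4: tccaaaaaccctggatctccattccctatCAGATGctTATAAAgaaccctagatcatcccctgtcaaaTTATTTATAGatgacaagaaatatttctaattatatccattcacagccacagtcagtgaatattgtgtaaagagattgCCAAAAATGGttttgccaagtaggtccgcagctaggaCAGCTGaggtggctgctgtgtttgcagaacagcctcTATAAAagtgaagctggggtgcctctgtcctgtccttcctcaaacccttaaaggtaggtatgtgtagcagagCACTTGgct
Actc1: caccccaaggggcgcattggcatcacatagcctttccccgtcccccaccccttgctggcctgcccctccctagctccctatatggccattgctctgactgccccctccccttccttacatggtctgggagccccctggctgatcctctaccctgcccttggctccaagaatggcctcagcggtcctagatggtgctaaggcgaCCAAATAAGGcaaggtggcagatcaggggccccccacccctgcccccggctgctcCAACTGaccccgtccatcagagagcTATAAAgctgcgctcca
Ttn: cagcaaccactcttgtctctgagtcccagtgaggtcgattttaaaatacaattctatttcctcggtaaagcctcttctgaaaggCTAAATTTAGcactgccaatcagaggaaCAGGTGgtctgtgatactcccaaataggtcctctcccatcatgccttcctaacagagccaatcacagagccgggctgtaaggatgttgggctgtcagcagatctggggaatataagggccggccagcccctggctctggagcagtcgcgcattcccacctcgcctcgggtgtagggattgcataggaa
Ckmt2 held 4 E-boxes, 1 of them CAGCTG, and no match to the other motifs in this window. Myh4 held 3 E-boxes, a MEF2 site that overlaps a reverse TATAAA match, a CArG box and a TATAAA whose first base lay 31 bases before the start site. Actc1 held a CArG box before the start site, and an E-box and a TATAAA after it, with first bases at +9 and +34. Ttn held a MEF2 site and an E-box. RefSeq promoters were found for 38 of the 49 genes, with 44 promoters in all. The CAGCTG form of the E-box was in 45.5% of these 44 and in 16.3% of all 32851 promoters, the MEF2 site in 15.9% against 1.86%, the CArG box in 15.9% against 1.63%, TATAAA in 27.3% against 13.6%, and any CANNTG in 86.4% against 72.3%. These are matches of letters, and binding was not measured.

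Among the 6 myosin heavy chains, the motor proteins of the thick filament, Myh4 and Myh7 rose with knockout, Myh3, Myh1 and Myh8 fell, and Myh2 was not called. Myh3 had 161, 204 and 163 CPM in knockout oxybutynin, 266, 199 and 178 CPM in knockout vehicle, and 732, 616 and 753 CPM in floxed vehicle libraries. Myh3 encodes the embryonic heavy chain, and its level was 3.27-fold lower in knockout vehicle than in floxed vehicle cells (log2 fold change -1.71 ± 0.13 (SE), adjusted p = 6.31e-09). Myh8 had 105, 135 and 104 CPM in knockout oxybutynin, 203, 161 and 140.4 CPM in knockout vehicle, and 295, 240.2 and 287 CPM in floxed vehicle libraries. Myh8, the perinatal heavy chain, fell by less (log2 fold change -0.70 ± 0.13 (SE), adjusted p = 0.000115). Myh1 had 191, 226 and 184 CPM in knockout oxybutynin, 344, 276 and 226 CPM in knockout vehicle, and 668, 580.3 and 665 CPM in floxed vehicle libraries. Myh1 encodes the fast IIx heavy chain and was 2.26-fold lower in knockout vehicle cells (log2 fold change -1.18 ± 0.12 (SE), adjusted p = 2.6e-07), and for Myh3, Myh8 and Myh1 no knockout vehicle library reached the lowest floxed vehicle library. Myh4 had 23.8, 29.2 and 23.2 CPM in knockout oxybutynin, 32.6, 31.2 and 27.2 CPM in knockout vehicle, and 11.2, 8.29 and 9.74 CPM in floxed vehicle libraries. Myh4 encodes the fast IIb heavy chain, and every knockout library of either treatment lay above every floxed vehicle library (log2 fold change 1.64 ± 0.13 (SE), adjusted p = 6.76e-09). Myh7, the slow and cardiac beta heavy chain, averaged 52.3 ± 7.21 CPM in knockout oxybutynin, 61.2 ± 6.21 CPM in knockout vehicle and 42.3 ± 4.22 CPM in floxed vehicle libraries (SD, n = 3 each). Its call (log2 fold change 0.53 ± 0.11 (SE), adjusted p = 0.000431) was lost when the trend on GC content and length was removed, with 0.21 (adjusted p = 0.0707). Myh2, the fast IIa heavy chain, was near the floor, at 3 to 11 counts in knockout oxybutynin, 16 to 20 in knockout vehicle and 18 to 29 in floxed vehicle libraries. Myh3, Myh2, Myh1, Myh4 and Myh8 lie side by side on the plus strand at chr11:67078300-67308634 (GRCm38), and Myh7 lies on the minus strand at chr14:54970684-54994626. Within this cluster Myh4 rose while its neighbours Myh1 and Myh8 fell. These genes share sequence, since 32.1% of the 50-base windows of the Myh1 transcript also occur in another gene, 28.9% of those of Myh2, 21.4% of Myh8, 18.9% of Myh4 and 4.81% of Myh3, and the sources used here do not state how the counting treated such reads. For Myh7 the share was 28.2%, mostly with Myh6, which had at most 6 counts in any library.

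The make-up of the heavy chains changed with genotype. Per kilobase of exon, Myh3 held 35.98% ± 0.48 of the 6 heavy chains in knockout oxybutynin, 33.2% ± 0.94 in knockout vehicle and 46.98% ± 0.71 in floxed vehicle libraries (SD, n = 3 each). Myh4 held 5.24% ± 0.032 in knockout oxybutynin, 4.81% ± 0.52 in knockout vehicle and 0.656% ± 0.055 in floxed vehicle libraries. Myh7 held 7.52% ± 0.17 in knockout oxybutynin, 6.78% ± 0.90 in knockout vehicle and 1.99% ± 0.015 in floxed vehicle libraries. The share of Myh1 was 39.2% ± 0.82 in knockout oxybutynin, 41.7% ± 1.2 in knockout vehicle and 40.9% ± 0.72 in floxed vehicle libraries, ahead of Myh3 in both knockout groups and behind it in floxed vehicle libraries. The share of Myh8 was 12.04% ± 0.28 in knockout oxybutynin, 13.4% ± 0.071 in knockout vehicle and 9.45% ± 0.22 in floxed vehicle libraries. As shares of a whole these values are not independent, and no test was made of them.

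**Figure D3:**
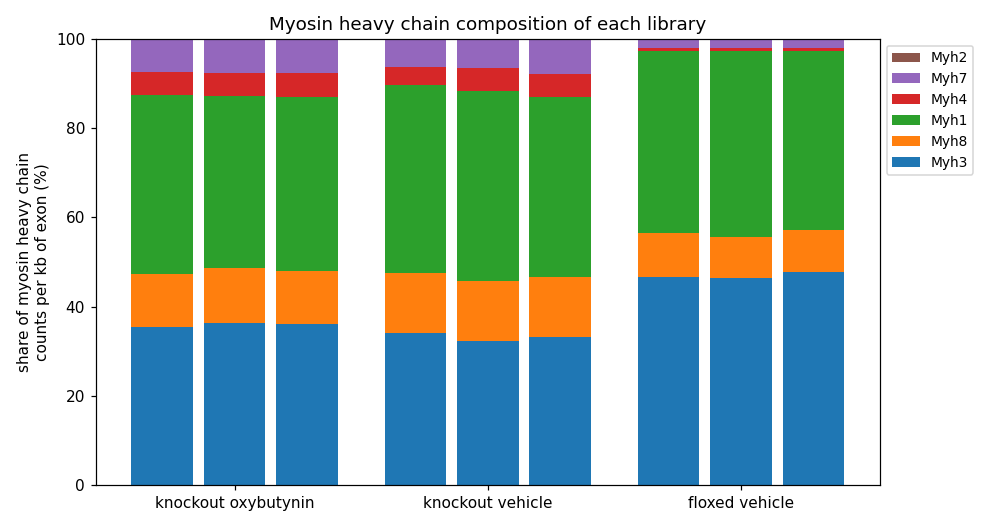
Share of each myosin heavy chain gene among the 6, in percent of their summed counts per kilobase of exon, 1 bar per library. The Myh3 segment is 35.4% to 36.3% in knockout oxybutynin, 32.2% to 34.1% in knockout vehicle and 46.4% to 47.8% in floxed vehicle libraries, while the Myh4 and Myh7 segments are wider in both knockout groups.

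Of the 5 tested light chains and their kinase, Myl2 and Mylk2 rose with knockout, Myl4 fell, and Myl1 and Mylpf were not called. Myl2 had 1.22, 1.14 and 0.719 CPM in knockout oxybutynin, 1.49, 0.920 and 1.13 CPM in knockout vehicle, and 0.102, 0.129 and 0.267 CPM in floxed vehicle libraries. These are 16 to 30 counts in knockout oxybutynin, 22 to 32 in knockout vehicle and 2 to 6 in floxed vehicle libraries, and the knockout and floxed libraries did not overlap. Myl2, the slow and ventricular regulatory light chain, was at a trace level in floxed vehicle cells and rose with knockout (log2 fold change 2.77 ± 0.43 (SE), adjusted p = 2.81e-05). Mylk2 had 6.61, 5.51 and 5.53 CPM in knockout oxybutynin, 4.84, 4.43 and 6.84 CPM in knockout vehicle, and 3.07, 3.99 and 3.60 CPM in floxed vehicle libraries. Mylk2, the skeletal myosin light chain kinase that phosphorylates the regulatory light chain, was 1.51-fold higher (log2 fold change 0.59 ± 0.18 (SE), adjusted p = 0.00942), but its call was lost without knockout vehicle library 3 (adjusted p = 0.0703) and when the GC and length trend was removed, with 0.12 (adjusted p = 0.519). Myl4 had 154, 135 and 128 CPM in knockout oxybutynin, 169, 97.2 and 152 CPM in knockout vehicle, and 189.6, 169 and 198 CPM in floxed vehicle libraries. Myl4, the embryonic and atrial essential light chain, fell slightly (log2 fold change -0.41 ± 0.14 (SE), adjusted p = 0.0181), with knockout vehicle library 1 inside the floxed range, and without floxed vehicle library 3 the call was lost (adjusted p = 0.065). Mylpf had 299, 269 and 276 CPM in knockout oxybutynin, 328, 229.9 and 327 CPM in knockout vehicle, and 323, 303 and 327 CPM in floxed vehicle libraries. Mylpf, the fast regulatory light chain, was the highest of this role per kilobase of exon, at 278 CPM per kb in knockout vehicle and 299 CPM per kb in floxed vehicle cells, though Myl1 had more counts. Mylpf was not called (log2 fold change -0.11 ± 0.11 (SE), adjusted p = 0.401) unless the GC and length trend was removed, with -0.40 (adjusted p = 0.000308). Myl1, the fast essential light chain, averaged 403 ± 23.7 CPM in knockout oxybutynin, 458 ± 128 CPM in knockout vehicle and 432 ± 35.5 CPM in floxed vehicle libraries (SD, n = 3 each) and was not called, and 23.4% of its transcript windows are shared with the pseudogene Mylf-ps.

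The 3 myosin-binding proteins of the thick filament went 3 ways. Mybpc2 had 2.37, 3.11 and 2.65 CPM in knockout oxybutynin, 3.91, 3.72 and 3.89 CPM in knockout vehicle, and 0.409, 0.472 and 0.667 CPM in floxed vehicle libraries. Mybpc2, the fast myosin-binding protein C, was 7.33-fold higher in knockout vehicle than floxed vehicle cells (log2 fold change 2.87 ± 0.24 (SE), adjusted p = 1.85e-08), and no libraries of the 2 genotypes overlapped. Mybph had 92.4, 88.4 and 78.1 CPM in knockout oxybutynin, 96.7, 67.1 and 93.6 CPM in knockout vehicle, and 200.3, 166 and 201 CPM in floxed vehicle libraries. Mybph, the myosin-binding protein H of developing muscle, was 2.20-fold lower (log2 fold change -1.14 ± 0.12 (SE), adjusted p = 2.75e-07). The Adora1 gene on the opposite strand overlaps 49.9% of the Mybph exon bases, and Adora1 itself was at 2.35 ± 0.32 CPM in knockout vehicle and 2.5 ± 0.41 CPM in floxed vehicle libraries. How reads over the shared bases were counted is not given, and their part in the fall of Mybph was not tested. Mybpc1 had 47.7, 53.2 and 48.5 CPM in knockout oxybutynin, 92.6, 73.3 and 67.6 CPM in knockout vehicle, and 70.5, 60.6 and 70.2 CPM in floxed vehicle libraries. Mybpc1, the slow myosin-binding protein C, was not called (log2 fold change 0.21 ± 0.11 (SE), adjusted p = 0.0919), and it was called higher with no filter (adjusted p = 0.0214), without knockout vehicle library 2 (adjusted p = 0.0261), without knockout vehicle library 3 (adjusted p = 0.0198) and once the GC and length trend was taken out, at 0.24 (adjusted p = 0.0323).

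The 2 sarcomeric actins of the thin filament moved in opposite directions. Acta1 had 1179.7, 1173 and 1077 CPM in knockout oxybutynin, 1364, 1023 and 1327 CPM in knockout vehicle, and 729, 661 and 742 CPM in floxed vehicle libraries. Acta1, the adult skeletal alpha-actin, was 1.74-fold higher in knockout vehicle than in floxed vehicle cells (log2 fold change 0.80 ± 0.10 (SE), adjusted p = 2.07e-06), and the estimate was 0.35 (adjusted p = 0.000109) with the GC and length trend removed. Actc1 had 176, 182 and 192 CPM in knockout oxybutynin, 201, 181 and 195 CPM in knockout vehicle, and 570.0, 528 and 585 CPM in floxed vehicle libraries. Actc1, the cardiac alpha-actin that skeletal muscle expresses during development, was 2.92-fold lower (log2 fold change -1.54 ± 0.08 (SE), adjusted p = 5.82e-11). Acta1 was therefore counted 5.62 to 6.70 times as often as Actc1 in knockout oxybutynin, 5.67 to 6.79 times in knockout vehicle and 1.25 to 1.28 times in floxed vehicle libraries. Neither the actin ratio nor the level of Actc1 overlapped between the genotypes, and Actc1 shares no 50-base window with another gene while Acta1 shares 2.22%, with Actb and Actg1 among the partners. Neb had 401, 418 and 416 CPM in knockout oxybutynin, 436, 539 and 457 CPM in knockout vehicle, and 1463, 1304 and 1528 CPM in floxed vehicle libraries. Neb encodes nebulin, the giant protein that runs along the thin filament, and was lower in every knockout library than in any floxed library (log2 fold change -1.58 ± 0.09 (SE), adjusted p = 2.29e-10), or -0.96 (adjusted p = 1.63e-09) with the GC and length trend removed. Lmod3 had 7.18, 7.44 and 8.22 CPM in knockout oxybutynin, 13.8, 12.6 and 10.6 CPM in knockout vehicle, and 35.04, 30.02 and 36.3 CPM in floxed vehicle libraries. Lmod3 and Lmod2 are leiomodins, which nucleate actin filaments, and Lmod3 was 2.75-fold lower (log2 fold change -1.46 ± 0.12 (SE), adjusted p = 9.45e-09). Lmod2 averaged 16.7 ± 1.09 CPM in knockout oxybutynin, 24.1 ± 3.44 CPM in knockout vehicle and 30.4 ± 2.53 CPM in floxed vehicle libraries (SD, n = 3 each), and its call (log2 fold change -0.34 ± 0.11 (SE), adjusted p = 0.0136) was not held throughout. It was lost without floxed vehicle library 1 (adjusted p = 0.0825), knockout vehicle library 1 (0.057) or knockout vehicle library 3 (0.0672), and with library totals as the only scaling (0.0504).

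**Figure D4:**
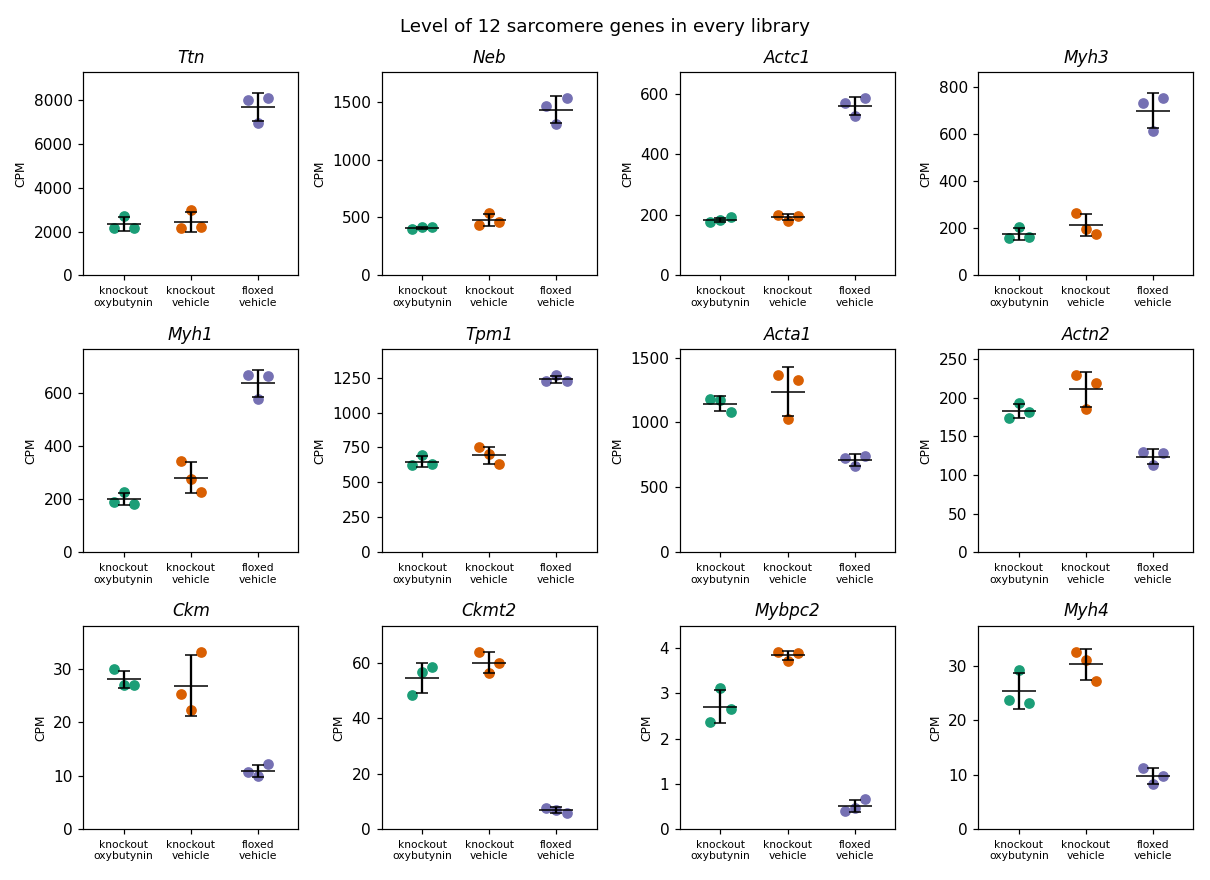
Level in CPM of 12 sarcomere genes in every library, each panel with a linear axis from 0. Points are libraries, long bars are group means and error bars are 1 SD (n = 3). Ttn, Neb, Actc1, Myh3, Myh1 and Tpm1 lie lower in both knockout groups than in floxed vehicle libraries with no overlap, and the other 6 genes lie higher in both with no overlap.

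Of the 7 troponins, 4 fell with knockout (Tnnt1, Tnnt2, Tnnt3 and Tnnc2), Tnnc1 and Tnni1 rose, and Tnni2 was not called. Tnnt3 had 76.8, 79.00 and 70.6 CPM in knockout oxybutynin, 108, 74.1 and 88.5 CPM in knockout vehicle, and 130.4, 119.6 and 138 CPM in floxed vehicle libraries. Tnnt3, the fast troponin T that anchors the complex to tropomyosin, fell with knockout (log2 fold change -0.52 ± 0.11 (SE), adjusted p = 0.000534). Tnnt2 had 50.7, 57.2 and 52.5 CPM in knockout oxybutynin, 72.5, 49.5 and 61.2 CPM in knockout vehicle, and 87.97, 82.5 and 93.1 CPM in floxed vehicle libraries. Tnnt2, the cardiac troponin T of embryonic muscle, fell by a similar amount (log2 fold change -0.53 ± 0.11 (SE), adjusted p = 0.000533), and for both genes the highest knockout vehicle library lay below the lowest floxed vehicle library. Tnnt1 had 27.4, 27.3 and 24.5 CPM in knockout oxybutynin, 36.6, 18.6 and 31.1 CPM in knockout vehicle, and 46.8, 35.3 and 43.04 CPM in floxed vehicle libraries. Tnnt1, the slow troponin T, had knockout vehicle library 1 inside the floxed range (log2 fold change -0.54 ± 0.17 (SE), adjusted p = 0.0112), and the call was lost without floxed vehicle library 1 (adjusted p = 0.0564). All 3 troponin T genes fell, and Tnnt3 held 73.4% ± 2.2 of troponin T counts per kilobase of exon in knockout vehicle and 73.02% ± 1.2 in floxed vehicle libraries. By counts alone it held 50.3% ± 1.6 in knockout vehicle and 49.99% ± 0.71 in floxed vehicle libraries. The share thus depends on the exon lengths, 1583 bases for Tnnt3 and 7752 for Tnnt2, but in neither form did it change much with knockout. Tnnc2 had 17.1, 16.5 and 14.5 CPM in knockout oxybutynin, 23.8, 15.6 and 21.5 CPM in knockout vehicle, and 32.2, 25.98 and 28.8 CPM in floxed vehicle libraries. Tnnc2, the fast calcium-binding subunit, fell (log2 fold change -0.52 ± 0.13 (SE), adjusted p = 0.00279). Ube2c on the opposite strand overlaps 74% of its exon bases and stood at 90.7 ± 9.1 CPM in knockout vehicle and 86.8 ± 2.1 CPM in floxed vehicle libraries. Tnnc1 had 107, 98.8 and 97.8 CPM in knockout oxybutynin, 116, 84.9 and 114 CPM in knockout vehicle, and 89.3, 74.6 and 85.5 CPM in floxed vehicle libraries. Tnnc1, the slow and cardiac calcium-binding subunit, was the highest of the troponins per kilobase of exon in both knockout groups. By counts Tnni1 was higher, and its exons span 3600 bases against 1041 for Tnnc1. Tnnc1 rose slightly, with knockout vehicle library 2 inside the floxed range (log2 fold change 0.34 ± 0.11 (SE), adjusted p = 0.0116). The rise was absent with the GC and length trend removed, at -0.00 (adjusted p = 0.997), and the call was lost without floxed vehicle library 2 (adjusted p = 0.075) or knockout vehicle library 3 (0.0533). Per kilobase, Tnnc1 held 82.9% ± 0.83 of the 2 troponin C genes in knockout oxybutynin, 79.97% ± 0.93 in knockout vehicle and 68.8% ± 0.73 in floxed vehicle libraries. Tnni1, the slow inhibitory subunit, averaged 249 ± 13.1 CPM in knockout oxybutynin, 253 ± 41.6 CPM in knockout vehicle and 208 ± 12.3 CPM in floxed vehicle libraries (log2 fold change 0.29 ± 0.10 (SE), adjusted p = 0.022). Its call was lost without floxed vehicle library 2 (adjusted p = 0.101), knockout vehicle library 1 (0.0508) or 3 (0.0982) and among protein-coding genes alone (0.0564). It was also lost with the GC and length trend removed, at 0.23 (adjusted p = 0.0548). Tnni2, the fast inhibitory subunit, averaged 9.72 ± 1.25 CPM in knockout oxybutynin, 9.85 ± 3.52 CPM in knockout vehicle and 11.6 ± 1.12 CPM in floxed vehicle libraries (SD, n = 3 each) and was not called (log2 fold change -0.23 ± 0.20 (SE), adjusted p = 0.321) unless the GC and length trend was removed, with -0.68 (adjusted p = 0.00128).

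The tropomyosins lie along the actin filament and cover its myosin-binding sites. Tpm1 had 623, 693 and 629 CPM in knockout oxybutynin, 754, 700.3 and 632 CPM in knockout vehicle, and 1225, 1267 and 1225 CPM in floxed vehicle libraries. Tpm1 was 1.78-fold lower in knockout vehicle cells (log2 fold change -0.83 ± 0.08 (SE), adjusted p = 1.29e-07), with a wide gap between the genotypes. Tpm2 had 311, 303 and 262 CPM in knockout oxybutynin, 341, 239 and 319 CPM in knockout vehicle, and 382, 340.3 and 399 CPM in floxed vehicle libraries. Tpm2, beta-tropomyosin, fell by less (log2 fold change -0.32 ± 0.11 (SE), adjusted p = 0.0204), with knockout vehicle library 1 above the lowest floxed vehicle library, and the call was lost without floxed vehicle library 1 (adjusted p = 0.0618), floxed vehicle library 3 (0.087) or knockout vehicle library 2 (0.0683). Tpm3, the slow muscle and non-muscle tropomyosin, averaged 431 ± 15.2 CPM in knockout oxybutynin, 422 ± 19.6 CPM in knockout vehicle and 421 ± 13.4 CPM in floxed vehicle libraries (SD, n = 3 each) and was not called, with 62.4% of its transcript windows shared with other genes, Tpm3-rs7 among them.

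Titin, the elastic giant protein that spans the sarcomere from Z-disc to M-band, had the most counts of the 49 genes. Ttn had 2153, 2702 and 2146 CPM in knockout oxybutynin, 2169, 2984 and 2193 CPM in knockout vehicle, and 8003, 6958 and 8070.1 CPM in floxed vehicle libraries. Ttn, on the minus strand at chr2:76703980-76982547 (GRCm38), was 3.14-fold lower in knockout vehicle than floxed vehicle cells (log2 fold change -1.65 ± 0.12 (SE), adjusted p = 4.01e-09), and knockout vehicle library 2 was the highest of its group. Its exons span 116825 bases, and with the GC and length trend removed the estimate was -0.48 (adjusted p = 3.43e-05), a smaller fall that was still called. Ttn was itself among the genes to which the trend was fitted, and the median exon length of tested protein-coding genes was 4573 bases. So far along the length scale the trend may take up part of the change of Ttn, which was not tested. Of the M-band genes, which crosslink myosin, only Myom2 was called. Myom2 had 76.3, 85.1 and 78.3 CPM in knockout oxybutynin, 101, 96.2 and 88.01 CPM in knockout vehicle, and 77.6, 70.8 and 75.9 CPM in floxed vehicle libraries. Myom2 rose slightly and without overlap (log2 fold change 0.34 ± 0.08 (SE), adjusted p = 0.00154). Myom3 had 49.3, 57.8 and 50.2 CPM in knockout oxybutynin, 55.6, 55.5 and 55.1 CPM in knockout vehicle, and 63.6, 57.4 and 64.6 CPM in floxed vehicle libraries. Myom3 was not called (log2 fold change -0.16 ± 0.09 (SE), adjusted p = 0.121) although its libraries did not overlap, and with the GC and length trend removed it was called lower, at -0.54 (adjusted p = 1.59e-05). Myom1 averaged 49.1 ± 4.94 CPM in knockout oxybutynin, 66.1 ± 12.1 CPM in knockout vehicle and 57.8 ± 4.06 CPM in floxed vehicle libraries (SD, n = 3 each) and was not called (log2 fold change 0.19 ± 0.12 (SE), adjusted p = 0.156), but it was called higher without knockout vehicle library 3 (adjusted p = 0.0191) and with no filter (0.0422).

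The Z-disc anchors the thin filaments of adjoining sarcomeres, and desmin filaments tie the Z-discs to each other and to the membrane. Of the 9 genes of this role 6 rose with knockout (Tcap, Actn2, Myoz1, Des, Myot and Actn3), Xirp1 fell, and Ldb3 and Myoz2 were not called. Actn2 had 174, 193 and 182 CPM in knockout oxybutynin, 229, 186 and 219 CPM in knockout vehicle, and 130.0, 112 and 128 CPM in floxed vehicle libraries. Actn2, the alpha-actinin that crosslinks actin at the Z-disc, was 1.71-fold higher in knockout vehicle than floxed vehicle cells (log2 fold change 0.77 ± 0.09 (SE), adjusted p = 1.01e-06), and the estimate was 0.35 (adjusted p = 0.000477) with the GC and length trend removed. Tcap had 16.2, 15.2 and 11.1 CPM in knockout oxybutynin, 18.4, 12.7 and 17.2 CPM in knockout vehicle, and 8.63, 7.26 and 7.69 CPM in floxed vehicle libraries. Tcap, telethonin, which caps titin at the Z-disc, was 2.05-fold higher (log2 fold change 1.04 ± 0.16 (SE), adjusted p = 2.4e-05), and for Actn2 and Tcap every knockout library lay above every floxed library. Des had 1066, 988 and 1104 CPM in knockout oxybutynin, 944, 786 and 1077 CPM in knockout vehicle, and 701, 683 and 698 CPM in floxed vehicle libraries. Des was 1.35-fold higher without overlap (log2 fold change 0.43 ± 0.10 (SE), adjusted p = 0.000923), but not with the GC and length trend removed, at -0.03 (adjusted p = 0.683). Xirp1 had 81.5, 102 and 89.7 CPM in knockout oxybutynin, 94.9, 82.96 and 106 CPM in knockout vehicle, and 129, 121 and 125 CPM in floxed vehicle libraries. Xirp1, an actin-binding Xin repeat protein of myofibril remodelling, fell (log2 fold change -0.40 ± 0.10 (SE), adjusted p = 0.00183). The other called genes had log2 fold changes of 0.53 for Myoz1, 0.31 for Myot and 0.22 for Actn3, and each lost its call without at least 3 of the libraries left out in turn, at adjusted p-values of up to 0.126 for Myoz1, 0.131 for Myot and 0.18 for Actn3. With the GC and length trend removed Myoz1 was not called, at 0.13 (adjusted p = 0.571), while Myot was called higher and Actn3 was called lower, at -0.25 (adjusted p = 0.00175). Myoz2, the calsarcin of slow and cardiac muscle, was not called (log2 fold change 0.07 ± 0.12 (SE), adjusted p = 0.62) and, with 39.7% GC the most AT-rich of the 48 genes, was called higher with the trend removed, at 1.03 (adjusted p = 9.68e-06). Ldb3 was not called (log2 fold change -0.11 ± 0.09 (SE), adjusted p = 0.315) unless the trend was removed, with -0.21 (adjusted p = 0.0166).

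Among 4 genes of sarcomere assembly, 3 fell and Smyd1 rose. Unc45b had 8.86, 9.64 and 8.04 CPM in knockout oxybutynin, 9.74, 8.58 and 9.72 CPM in knockout vehicle, and 15.6, 15.5 and 17.2 CPM in floxed vehicle libraries. Unc45b, the chaperone that folds muscle myosin, was 1.73-fold lower in knockout vehicle cells (log2 fold change -0.79 ± 0.11 (SE), adjusted p = 1.18e-05). Klhl40 had 10.4, 10.8 and 10.4 CPM in knockout oxybutynin, 11.3, 8.28 and 12.3 CPM in knockout vehicle, and 16.3, 16.2 and 18.01 CPM in floxed vehicle libraries. Klhl40, a kelch protein that stabilises nebulin and leiomodin 3, fell (log2 fold change -0.67 ± 0.13 (SE), adjusted p = 0.000264), with every knockout library below every floxed library. Klhl41 had 49.9, 52.8 and 49.2 CPM in knockout oxybutynin, 76.3, 60.6 and 58.01 CPM in knockout vehicle, and 96.04, 81.9 and 95.9 CPM in floxed vehicle libraries. Klhl41, its relative with a chaperone role at nebulin, fell (log2 fold change -0.49 ± 0.10 (SE), adjusted p = 0.000478), and was not called with the GC and length trend removed, at -0.20 (adjusted p = 0.0852). Smyd1 had 99.4, 104 and 104 CPM in knockout oxybutynin, 109, 108 and 118 CPM in knockout vehicle, and 97.6, 93.4 and 98.4 CPM in floxed vehicle libraries. Smyd1, a muscle methyltransferase that works with myosin chaperones, rose slightly (log2 fold change 0.21 ± 0.07 (SE), adjusted p = 0.0221). Its call was lost without floxed vehicle library 1 (adjusted p = 0.0596), 2 (0.101) or 3 (0.0527) and among protein-coding genes alone (0.0805). It was also lost with the GC and length trend removed, at 0.06 (adjusted p = 0.419). The creatine kinases, which buffer ATP at the myofibril and the mitochondrion, both rose. Ckmt2 had 48.3, 56.5 and 58.6 CPM in knockout oxybutynin, 63.8, 56.2 and 59.96 CPM in knockout vehicle, and 7.76, 6.87 and 5.65 CPM in floxed vehicle libraries. Ckmt2, the sarcomeric mitochondrial isoform at chr13:91853387-91876885 on the minus strand, had the largest fold change and the lowest adjusted p of the 48 genes, 8.89-fold higher (log2 fold change 3.15 ± 0.12 (SE), adjusted p = 3.27e-12). Ckm had 29.96, 27.1 and 27.05 CPM in knockout oxybutynin, 25.3, 22.2 and 33.2 CPM in knockout vehicle, and 10.7, 9.92 and 12.1 CPM in floxed vehicle libraries. Ckm, the cytosolic muscle isoform, was 2.47-fold higher (log2 fold change 1.30 ± 0.14 (SE), adjusted p = 2.35e-07), and neither creatine kinase overlapped between genotypes.

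Sorted by the fibre type or stage in which each isoform is known to prevail, all 4 embryonic or neonatal genes (Myh3, Myh8, Myl4 and Actc1) were lower in knockout vehicle than floxed vehicle cells, with a median log2 fold change of -1.12. Of the 10 adult fast genes 4 were higher and 3 lower (median -0.17), and of the 9 tested slow or cardiac genes 5 were higher and 2 lower (median 0.29). Of all tested genes 29.9% were higher and 33.4% lower. Another 25 of the genes, Myl1 and Mybpc1 among them, were sorted as shared or other and are not in these counts. With the GC and length trend removed, 2 of the adult fast genes were called higher and 6 lower. Of the slow or cardiac genes 3 were then called higher and 2 lower, and all 4 embryonic or neonatal genes remained lower. The 3 slow or cardiac genes were Myl2, Ckmt2 and Myoz2, the last not called before, while Myh7, Tnnc1 and Tnni1 lost their calls. Of all tested genes 28.2% were higher and 30.7% lower in that fit. Knockout vehicle and floxed vehicle libraries did not overlap for 15 of the 48 genes with higher levels and 18 with lower levels, against 31.2% and 35.5% of all tested genes.

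Oxybutynin was set against vehicle within knockout cells. No sarcomere gene was called by the edgeR quasi-likelihood test, which called 0.0127% of all tested genes. At an unadjusted p under 0.05 there were 19 of the 48 genes, against 26% of all tested genes. Limma-voom called 0 of the 48 (0.0191% of all tested genes). DESeq2 called 9, all lower (10.7% of the genes to which it gave an adjusted p). The estimates lay mostly below 0, in 42 of the 48 genes against 50.4% of all tested genes, with a median log2 fold change of -0.18 over the 48 genes and -0.00 over all tested genes. The median was -0.21 with the GC and length trend removed, and rho with GC content was 0.45 over the 48 genes and 0.69 over the protein-coding genes. In 15 of the 48 genes the knockout oxybutynin libraries all lay below the knockout vehicle libraries, and in 0 all above, against 11.6% and 10.5% of all tested genes. The 9 genes with an adjusted p under 0.1 were all lower (5.79% of all tested genes were lower at this level), namely Mybpc1, Lmod3, Lmod2, Myot, Myh8, Myh1, Myom1, Klhl41 and Myh2. The lowest adjusted p belonged to Mybpc1 (log2 fold change -0.64 ± 0.11 (SE), adjusted p = 0.0509) and Lmod3 (log2 fold change -0.69 ± 0.13 (SE), adjusted p = 0.0509), whose values stand above. Lmod3 ranged from 7.18 to 8.22 CPM in knockout oxybutynin and from 10.6 to 13.8 CPM in knockout vehicle libraries. Mybpc1 ranged from 47.7 to 53.2 CPM in knockout oxybutynin and from 67.6 to 92.6 CPM in knockout vehicle libraries. Neither gene overlapped between treatments. Myh8 (log2 fold change -0.55 ± 0.13 (SE), adjusted p = 0.0644), Lmod2 (log2 fold change -0.53 ± 0.11 (SE), adjusted p = 0.0638), Myot (log2 fold change -0.57 ± 0.13 (SE), adjusted p = 0.0644) and Myh1 (log2 fold change -0.49 ± 0.12 (SE), adjusted p = 0.0673) came next. The genes changed at least 2-fold by knockout had log2 fold changes from -0.69 (Lmod3) to 0.06 (Ckm) in this comparison, with -0.50 ± 0.19 for Mybpc2, -0.14 ± 0.10 for Ckmt2, -0.07 ± 0.12 for Ttn and -0.07 ± 0.08 for Actc1 (SE). The count of calls depended on single libraries. Without knockout vehicle library 2 there were 7 lower (Myh1, Myh8, Mybpc1, Lmod3, Tnnc2, Tnnt3 and Myot), against 0.316% of all tested genes lower in that fit. Without knockout vehicle library 3 there were 11 lower and Des higher, against 14.4% of all tested genes lower and 11.6% higher. The knockout vehicle libraries also enter the comparison of genotypes, so the directions of both comparisons are not independent.

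**Figure D5:**
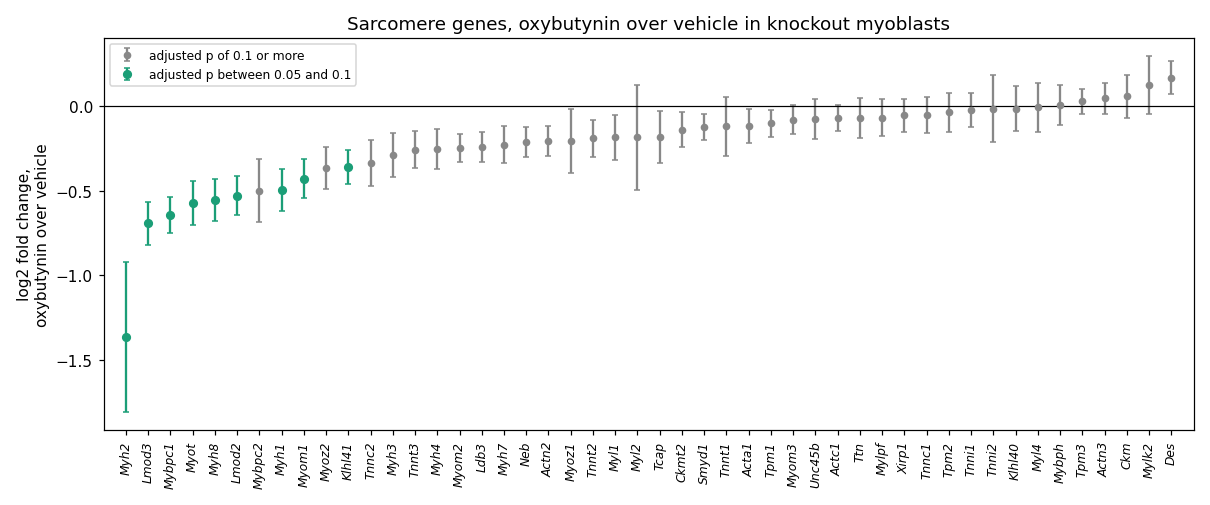
Log2 fold change of the 48 tested sarcomere genes, knockout oxybutynin over knockout vehicle, in rising order, with bars of 1 SE. Green points are the 9 genes with an adjusted p between 0.05 and 0.1, all below 0, and grey points are the other 39. Of the 48 points, 42 lie below 0.

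Knockout oxybutynin cells were also compared with floxed vehicle cells, a contrast in which genotype, virus and drug all change and which shares libraries with both others. Of the 48 genes 14 were higher, 25 lower and 9 not called, against 71.9% of all tested genes called (35.1% higher and 36.9% lower). With the GC and length trend removed 7 were higher and 29 lower (29.7% and 32.1% of all tested genes). In every other fit at this threshold that tested them, 5 genes kept the call higher (Myh4, Myl2, Mybpc2, Ckm and Ckmt2) while 21 kept the call lower, again without the share of all tested genes that did so. Ckmt2 was highest in this contrast as well (log2 fold change 3.01 ± 0.12 (SE), adjusted p = 3.73e-12), and Lmod3 was lowest (log2 fold change -2.15 ± 0.12 (SE), adjusted p = 9.16e-11). Called here but not between knockout vehicle and floxed vehicle cells were 5 genes, all lower: Myh2 (-1.77), Mybpc1 (-0.43), Myom3 (-0.24), Ldb3 (-0.35) and Myoz2 (-0.29), the numbers being log2 fold changes. The call of Myoz2 turned upward with the GC and length trend removed, at 0.82 (adjusted p = 0.000112), and Myom3 and Myoz2 each lost their call in at least 5 of the 9 fits that left out 1 library. Called between those groups but not here were 4 genes, namely Myom2, Myoz1, Myot and Smyd1. These are differences in calls, and the test of oxybutynin against vehicle in knockout cells called none of the 9.

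Genes near this apparatus were counted in the same fit. Between knockout vehicle and floxed vehicle cells it called 29.9% of all tested genes higher and 33.4% lower. Of 42 tested further sarcomere genes 12 were higher and 14 lower in knockout vehicle than floxed vehicle cells (median log2 fold change -0.07). Their estimates ran from -2.75 to 1.47, with 2 called at least 2-fold higher and 5 lower (8.62% and 15.8% of all tested genes). Among those that fell, the calpain Capn3 stood at 1.42 ± 0.37 CPM in knockout vehicle and 9.61 ± 0.41 CPM in floxed vehicle libraries. The actin-binding Nexn fell from 81.6 ± 3.7 CPM in floxed vehicle to 21.4 ± 5.3 CPM in knockout vehicle libraries. Of 21 regulators of myogenesis 3 were higher and 12 lower (median -0.39). The 3 called higher were Pax7 (log2 fold change 0.26), Mrtfa (log2 fold change 0.27) and Mef2b, and the estimates of Pax7 and Mrtfa were below 0 with the GC and length trend removed. Mef2b had 17, 20 and 27 counts in knockout oxybutynin, 7, 27 and 20 counts in knockout vehicle, and 2, 0 and 0 counts in floxed vehicle libraries. Mef2c, which binds the MEF2 site, stood at 42.3 ± 3.4 CPM in knockout vehicle and 171 ± 8.7 CPM in floxed vehicle libraries (SD, n = 3 each; log2 fold change -2.01 ± 0.10, adjusted p = 3.38e-11), and the fall was -0.88 with the GC and length trend removed. Myog, the factor of terminal differentiation, fell less (log2 fold change -0.55 ± 0.09, adjusted p = 2.27e-05), and Myod1 was not called (0.22 ± 0.10, adjusted p = 0.076). None of these genes was called between oxybutynin and vehicle in knockout cells by edgeR. At an unadjusted p under 0.05 there were 17 of the 42 and 9 of the 21, against 26% of all tested genes.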

How the data were processed

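RNA sequencing libraries were made with a directional NEBNext kit from 2 µg of total RNA, per the labels' protocols. The authors deposited 1 table of whole-number counts per gene, not normalized, for 9 libraries in 3 groups. Per the submitters' processing notes, STAR 2.7.0e, DESeq2 1.26.0, FastQC, cutadapt and Trim Galore 0.6.0 were run with GRCm38 and mm10. How reads were counted, on which strand and with which annotation is not given in the sources here. Library totals ran from 19604971 to 26226949 counts, and replicate libraries differed beyond counting noise, so each was used as 1 sample. Chi-square per degree of freedom between replicates was 7.32 to 16.9 in knockout oxybutynin, 17.6 to 54.0 in knockout vehicle and 2.10 to 3.18 in floxed vehicle libraries. The groups thus differed in spread, while the fit takes 1 estimate of the spread for all 3 groups.

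The deposited counts went into edgeR 4.0.16 (R 4.3.3) unchanged. Of 55536 genes filterByExpr kept 15720, TMM scaled the libraries, and 1 model of 3 group means (glmQLFit, glmQLFTest) covered the 9 libraries, with 6 residual degrees of freedom. P-values were adjusted by Benjamini-Hochberg across these 15720 genes and called under 0.05. Symbols, positions, exon lengths and GC content came from GENCODE M21, and promoters from RefSeq (GRCm38.p6). Exon length is that of all annotated exons of a gene merged, so levels, shares and ranks per kilobase depend on it. The GC and length trend of each library was fitted without regard to group (mgcv 1.9.3) and removed as an offset. Other settings were RLE scaling, library totals, DESeq2 1.42.0, limma-voom 3.58.1, other filters, other gene sets, other thresholds and leaving out each library. The code was tested on simulated data. Values per library are given, for each role, for up to 4 called genes with the lowest adjusted p in any comparison and the gene highest per kilobase; other genes are given by means, ranges or counts. Cardiomyocyte markers are not reported here. The genes, lists and tests were chosen with earlier results of these data known.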

Additional observations from a re-analysis of the deposited data

How the results depend on the processing

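Between knockout vehicle and floxed vehicle cells the counts of sarcomere genes called higher (18) and lower (20) stayed within 1.5 times of these values under every other scaling, tool, filter and gene set tried, with 12 to 19 higher and 17 to 20 lower when 1 library was left out. In those fits 25.8% to 33.5% of all tested genes were higher and 30.1% to 34.7% lower. A required change of 1.5-fold left 9 higher and 11 lower, and the share of all tested genes at this fold is not given here. Removal of the GC and length trend turned the sign of Tnnc1 (log2 fold change -0.0003), Actn3 (-0.2467) and Des (-0.0315). Between knockout oxybutynin and floxed vehicle cells the counts ran from 10 to 14 higher and 22 to 28 lower with 1 library left out. In those fits 31.5% to 36.7% of all tested genes were higher and 33.5% to 38.1% lower. There a required change of 1.5-fold left 9 higher, again without a share of all tested genes. Taking out the GC and length trend left 7 higher and turned Myh7 (-0.1188), Tnnc1 (-0.2127), Actn3 (-0.3837), Myoz2 (0.8192) and Des (-0.0184). Between knockout oxybutynin and knockout vehicle cells the count of genes called lower was 0, and was 1 with RLE scaling (0.0318% of all genes tested in that setting were lower), 5 with library totals (0.941%), 9 with DESeq2 (8.94%), 10 with no filter (2.73%), 2 without mitochondrial, ribosomal RNA and Rn7sk genes (0.0698%) and 9 at an adjusted p under 0.1, a threshold chosen after seeing the data. With 1 library left out it ran from 0 to 11, and the count called higher from 0 to 1. In those fits 0% to 14.4% of all tested genes were lower and 0% to 11.6% higher. The cause of these changes was not tested. Shares of heavy chains by counts and per kilobase of exon differed most for Myh8 in knockout vehicle libraries, at 22.2% against 13.4%, and both gave Myh3 a smaller and Myh4 a larger share in knockout vehicle than floxed vehicle cells. No paired analysis was possible because the labels give no replicate number that groups share.

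Counts limited Myh2, Myl2 and Myl3, which had under 40 counts in every library. With 3 libraries per group an exact permutation test of 1 gene cannot go below p = 0.1 (two-sided), so calls rest on the spread that edgeR shares across genes. Overlapping and near-identical genes limit the heavy chains, Tpm3, Mybph and Tnnc2 as given above.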

Other observations

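Of 25 tested contractile genes of non-muscle and smooth muscle cells 11 were higher and 4 lower in knockout vehicle than floxed vehicle cells. All tested genes were 29.9% higher and 33.4% lower. The median log2 fold change was 0.23, against -0.01 over all tested genes. With the GC and length trend removed 9 were higher and 8 lower (28.2% and 30.7% of all tested genes). Tagln, an actin-binding protein of smooth muscle, stood at 41.2 ± 7.6 CPM in knockout vehicle and 10.6 ± 0.49 CPM in floxed vehicle libraries (SD, n = 3 each; log2 fold change 1.96 ± 0.14, adjusted p = 2.19e-09). Acta2, the smooth muscle actin that myoblasts also express, stood at 972 ± 143 CPM in knockout vehicle and 477 ± 23 CPM in floxed vehicle libraries (log2 fold change 1.03 ± 0.10, adjusted p = 9.25e-08). The 7 smooth muscle markers together ranged from 275 to 311 CPM in knockout oxybutynin, 249.7 to 305 CPM in knockout vehicle and 255 to 261 CPM in floxed vehicle libraries, and the defining marker Myh11 was at most 0.838 CPM in any library. Single markers moved more than this sum. Of the 6 tested, 2 were called higher, both by at least 2-fold, and 1 lower in knockout vehicle than floxed vehicle cells. Their log2 fold changes ran from -0.44 to 3.55 (median 0.30).

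Of 17 genes of calcium release and uptake 4 were higher and 6 lower in knockout vehicle than floxed vehicle cells. Of all tested genes 29.9% were higher and 33.4% lower. Cacnb1, the beta subunit of the muscle calcium channel, stood at 89.7 ± 13 CPM in knockout vehicle and 39.6 ± 1.6 CPM in floxed vehicle libraries, and Hrc, a calcium-binding protein of the sarcoplasmic reticulum, at 21.3 ± 3.1 CPM in knockout vehicle and 45.2 ± 3.8 CPM in floxed vehicle libraries. The 9 fibroblast markers summed to 269 to 312 CPM in knockout oxybutynin, 302 to 311 CPM in knockout vehicle and 282 to 302 CPM in floxed vehicle libraries, with Lum and Tcf21 at 0 in all libraries. Of the 5 tested fibroblast markers Col1a1, Col1a2 and Thy1 were higher and Col3a1 lower in knockout vehicle than floxed vehicle cells (median log2 fold change 0.82). Col1a1, a collagen chain, stood at 54.4 ± 8.3 CPM in knockout vehicle and 21.2 ± 1.8 CPM in floxed vehicle libraries. Adipocyte and Schwann cell markers each summed to at most 5.32 CPM in any library.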
